A study of Mus musculus with 7 samples.

Results

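Complement is the part of innate immunity that tags surfaces for removal, and 9 of its genes were described here: the C1q chain genes C1qa, C1qb and C1qc, the opsonin genes C3 and C4b, the anaphylatoxin receptor genes C3ar1 and C5ar1, and Itgam and Itgb2, whose proteins pair to form complement receptor 3. The genes were chosen by name, and all 9 were measured among the 17422 deposited genes. Messenger RNA came from 7 mouse libraries on the Balb/c strain. By their labels, the 3 PDGF-B-labelled gliomas grew from wild type neural precursors of embryonic day 14 that received retroviral PDGF-B, a growth factor ligand, with the red fluorescent reporter DsRed. The 3 EGFRvIII-labelled gliomas are labelled as grown from Ink/Arf -/- precursors of embryonic day 14 given EGFRvIII, a truncated and constitutively active EGF receptor, with DsRed. Cells were kept for 10 days with bFGF and EGF, and adult BALB/c hosts then received 20000 of them in the brain. Tumours were taken when neurological symptoms appeared and sorted for DsRed. The single culture library came from wild type progenitors of embryonic day 14, transduced with PDGF-b and sorted for DsRed. It is labelled as cells and not as a tumour. All groups therefore share the retroviral DsRed and the sort, and the effects of oncogene and of Ink/Arf genotype cannot be told apart in the glioma comparison.

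The classical pathway starts when C1q, a protein of A, B and C chains, binds a target, after which C4 and then C3 are cleaved and their fragments are fixed to the surface. Small fragments of C3 and C5 act on the receptors C3ar1 and C5ar1, and phagocytes bind fixed C3 fragments through complement receptor 3. In the brain, microglia are the main source of C1q and carry these receptors, whereas C3 and C4 can also be made by astrocytes and other cells.

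Levels are given as counts scaled to library size (CPM), without the prior count that the deposited log2 values contain, and fold changes as differences of mean deposited log2 values. Estimated reads per library ranged from 32513754 to 39062584. The driver genes stood against the labels, for oncogene and for genotype. Egfr was at 4952, 5109 and 3594 CPM in replicates 1 to 3 labelled PDGF-B and at 41.2, 26.9 and 25.6 CPM in EGFRvIII-labelled ones, while Pdgfb was at 1.95, 2.97 and 4.88 CPM in the former and 386, 284 and 277 CPM in the latter. Cdkn2a, the gene of the Ink/Arf locus, was at 3.52, 2.94 and 4.99 CPM in PDGF-B-labelled gliomas and at 22.7, 26.1 and 11.1 CPM in EGFRvIII-labelled ones, whose label gives that locus as deleted, a log2 difference of -2.31 (limma adjusted p = 0.0318). Which exons the deletion removes is not stated in the labels, and a value per gene does not show which exons the reads came from. The culture held 282 CPM of Egfr, 245 CPM of Pdgfb and 10.7 CPM of Cdkn2a. Each direction between glioma groups below is therefore one between libraries labelled in this way. The deposited values are per mouse gene and do not separate a transgene from the endogenous gene.

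Libraries also stood apart within their groups. Across 20 microglial and general myeloid marker genes, the mean log2 level was 4.04, 4.402 and 5.42 in PDGF-B replicates 1 to 3 and 7.17, 8.29 and 7.44 in EGFRvIII replicates 1 to 3. PDGF-B replicate 3 and EGFRvIII replicate 2 were the highest of their groups, and each was also the highest of its group for 8 of the 9 complement genes. The summed marker level was 573 to 1477 CPM in PDGF-B-labelled gliomas, 5104 to 11032 CPM in EGFRvIII-labelled ones and 117 CPM in the culture. Of the 20 markers, 18 were called lower in PDGF-B-labelled gliomas, against 2.63% of all genes. Between the glioma groups 19 did not overlap, against 22.9% of all genes. The exception was Sall1, at 86.1 CPM in the culture and 55.3 to 162 CPM in the gliomas. Among defining markers, Cx3cr1 was at 65.5 ± 30.7 CPM (SD, n = 3) in PDGF-B-labelled gliomas and 556 ± 34.7 CPM (SD, n = 3) in EGFRvIII-labelled ones, and P2ry12 at 27.1 ± 1.26 and 217 ± 84.8 CPM. Tmem119, Csf1r and Ptprc were at 0.0289, 0.434 and 0.0289 CPM in the culture. The sort was for DsRed, which the labels give to the transduced cells, so the gate was aimed at leaving out host microglia and other host cells without DsRed. Its purity was not measured here, and the sorted gliomas held the marker levels given above. Which cells these transcripts came from was not tested. In bulk libraries, fewer cells of a type and less RNA per cell cannot be told apart, and the part of the marker difference in the results below was not tested, apart from the levels set against these markers further on.

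In the comparison of the glioma groups, 7 of the 9 complement genes were called by limma at an adjusted p of 0.05, against 3.35% of all genes tested. The C1q chains, C3ar1, Itgam and Itgb2 were lower in PDGF-B-labelled gliomas, where 2.63% of all genes were called lower. C4b was higher there, where 0.717% of all genes were called higher. C3 and C5ar1 were not called, and all 9 had an unadjusted p under 0.05. Library values of 8 genes did not overlap between the groups, all but C3, against 22.9% of all genes. The median log2 difference of the 9 genes was -3.47, beside -0.00015 for all genes. These calls rest on few libraries: 9 of 9 were called without PDGF-B replicate 3, when 7.36% of all genes were, and 0 of 9 without any 1 of the other 5 gliomas, when limma called 4 to 21 of all genes and 8 or 9 of the 9 kept an unadjusted p under 0.05. The direction of each of the 9 genes was the same in all of these fits.

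**Figure D1:**
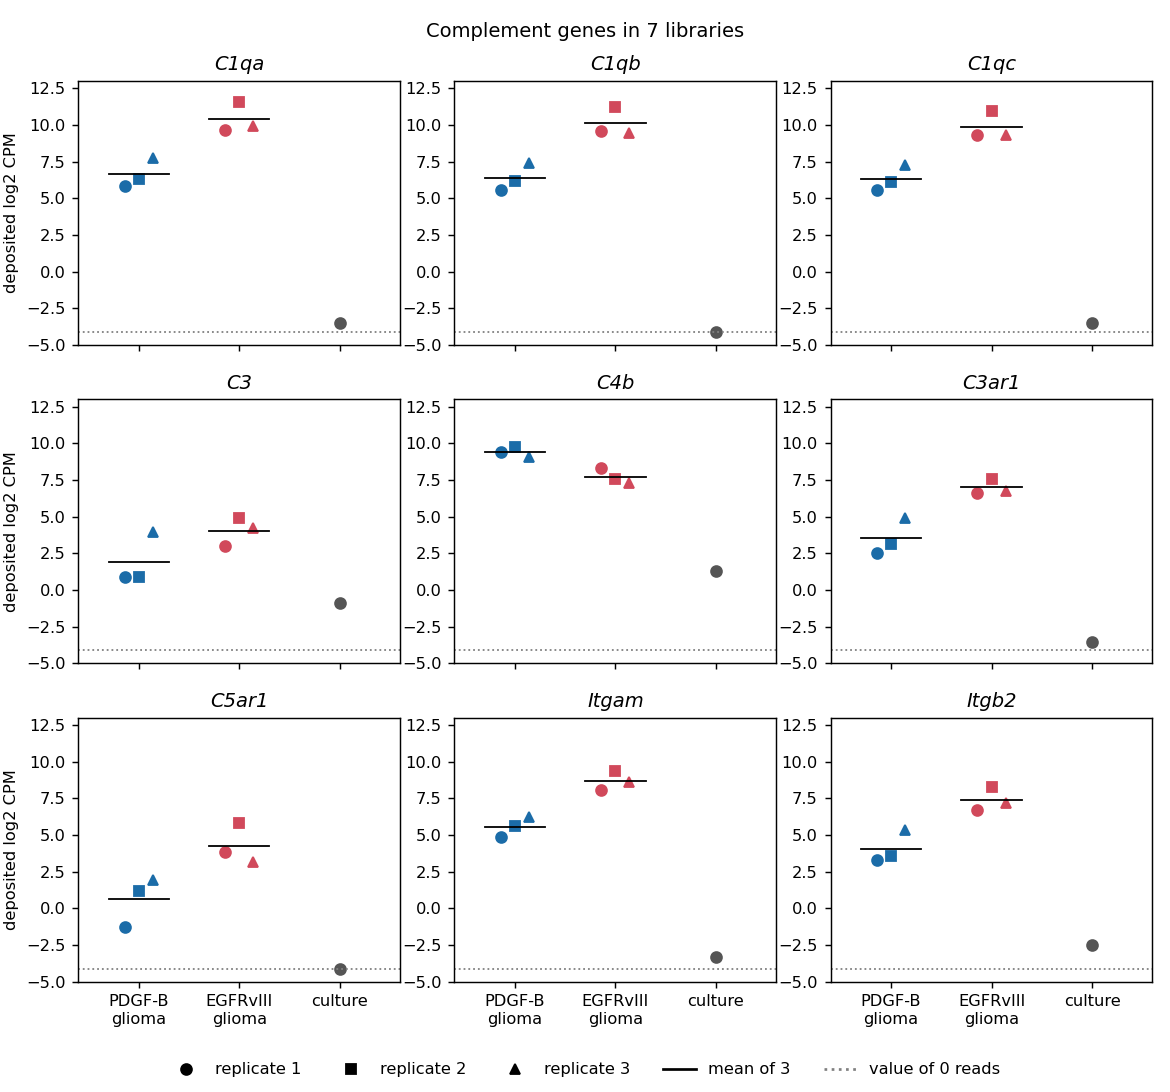
Deposited log2 CPM of each complement gene in the 7 libraries, with 1 point per library shaped by replicate, a line at each glioma group's mean and a dotted line at the value of 0 reads. C4b is the gene whose PDGF-B-labelled gliomas (532 to 875 CPM) all lie above EGFRvIII-labelled ones (160 to 319 CPM), and the culture lies lowest in every panel.

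The C1q chain genes lie beside each other on the minus strand of chromosome 4 (GRCm38): C1qa (ENSMUSG00000036887) at 136895917 to 136898803, C1qc (ENSMUSG00000036896) at 136889804 to 136893065 and C1qb (ENSMUSG00000036905) at 136880129 to 136886187. Per kb of exon, they were the most abundant of the 9 genes in every EGFRvIII-labelled glioma. C1qa, the A chain, was at 57.6, 81.6 and 219 CPM in PDGF-B replicates 1 to 3, at 827, 2976 and 975 CPM in EGFRvIII replicates 1 to 3 and at 0.0289 CPM, which is 1 read, in the culture. C1qb, the B chain, was at 48.3, 71.7 and 167 CPM, at 771, 2454 and 717 CPM and at 0 reads in the same order. C1qc, the C chain, was at 47.4, 69.9 and 154 CPM, at 625, 2016 and 638 CPM and at 1 read. For all 3 chains, EGFRvIII replicate 2 was far above its companions, PDGF-B replicate 3 was the highest of its group, and the groups did not overlap. Group means were 119 ± 87.2 and 1592 ± 1200 CPM (SD, n = 3 each) for C1qa, 95.8 ± 63.1 and 1314 ± 987 CPM for C1qb, and 90.3 ± 56.0 and 1093 ± 799 CPM for C1qc, so the means of the EGFRvIII-labelled gliomas were 13.3, 13.7 and 12.1 times PDGF-B-labelled ones. The log2 difference was -3.73 ± 0.63 (SE) for C1qa, -3.73 ± 0.60 for C1qb and -3.54 ± 0.58 for C1qc, with limma adjusted p of 0.0316, 0.0309 and 0.0311. The proportions of the chains moved far less than their levels. On the scale of CPM per kb of exon, C1qa stood at 1.12 to 1.42 times C1qb over the 6 gliomas and C1qc at 0.457 to 0.553 times C1qb.

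The promoters of C1qb and C1qc are shown because these neighbouring genes moved together, with 250 bases before and 50 after the RefSeq start site (GRCm38.p6), 5′ to 3′ on the gene's strand. Capitals mark GAGGAA on either strand (TTCCTC when it lies on the other strand), a core bound by ETS factors such as PU.1, the product of the myeloid gene Spi1. The C1qb window is chr4:136886151-136886450 and the C1qc window chr4:136892865-136893164, both on the minus strand.
C1qb: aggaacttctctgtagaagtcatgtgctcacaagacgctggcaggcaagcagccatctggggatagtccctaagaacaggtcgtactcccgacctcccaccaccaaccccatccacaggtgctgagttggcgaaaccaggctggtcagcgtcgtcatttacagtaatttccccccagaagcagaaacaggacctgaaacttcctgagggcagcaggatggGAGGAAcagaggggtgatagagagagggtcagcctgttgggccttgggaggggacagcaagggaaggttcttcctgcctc
C1qc: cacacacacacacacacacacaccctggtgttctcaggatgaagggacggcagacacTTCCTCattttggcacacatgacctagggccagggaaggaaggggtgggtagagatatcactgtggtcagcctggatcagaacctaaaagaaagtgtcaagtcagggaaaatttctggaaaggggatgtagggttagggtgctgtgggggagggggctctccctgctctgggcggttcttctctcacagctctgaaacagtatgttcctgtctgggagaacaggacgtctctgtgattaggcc
Of the 9 genes, 6 had a window in the table (C1qb, C1qc, C3, C3ar1, C5ar1 and Itgam). GAGGAA was found in 3 of the 6, namely C1qb, C1qc and Itgam, and in 28.3% of all 32851 promoter windows of this length. The longer GAGGAAGT, which holds GAGGAA, was found in C1qc alone of the 6 and in 3.20% of all windows. The GC box GGGCGG was found in C1qc, C3ar1 and Itgam and in 35.7% of all windows. The SOX site ACAAAG, also searched on both strands, was in 0 of the 6 and in 18.7% of all windows. Spi1 itself was at 2.71, 4.97 and 11.5 CPM in PDGF-B-labelled gliomas, at 38.8, 97.0 and 40.1 CPM in EGFRvIII-labelled ones and at 0 reads in the culture. The matches are letters in a window, and binding was not measured.

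C4b and C3 encode the proteins that are fixed to surfaces downstream of C1q, and their levels followed different patterns. C4b (ENSMUSG00000073418, chromosome 17, 34728380 to 34743882, minus strand) was at 679, 875 and 532 CPM in PDGF-B replicates 1 to 3, at 319, 188 and 160 CPM in EGFRvIII replicates 1 to 3 and at 2.42 CPM, or 83.5 estimated reads, in the culture. Every PDGF-B-labelled glioma was above every EGFRvIII-labelled glioma, and PDGF-B replicate 3, the highest of its group for the other 8 genes, was the lowest for C4b. The means were 695 ± 172 and 222 ± 84.4 CPM (SD, n = 3 each), a ratio of 3.13, with a log2 difference of 1.68 ± 0.32 (SE) and a limma adjusted p of 0.0385. C4b has a near-identical copy on the same chromosome, C4a (ENSMUSG00000015451, 34809092 to 34823464), so how reads were divided between them is uncertain. C4a was at 38.2, 45.6 and 29.8 CPM in PDGF-B-labelled gliomas, at 19.5, 11.3 and 10.7 CPM in EGFRvIII-labelled ones and at 1.87 CPM in the culture. It moved the same way as C4b between the glioma groups, by 1.48 ± 0.29 on the log2 scale (limma adjusted p = 0.0435). C4a amounted to 5.21% to 6.69% of the C4b level in the 6 gliomas and to 77.2% in the culture.

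C3 (ENSMUSG00000024164, chromosome 17, 57203970 to 57228136, minus strand), the central component on which all activation routes meet, was at 1.81, 1.76 and 15.5 CPM in PDGF-B replicates 1 to 3, at 8.14, 29.6 and 18.5 CPM in EGFRvIII replicates 1 to 3 and at 0.492 CPM, or 17 reads, in the culture. Its groups overlapped, because PDGF-B replicate 3 was above EGFRvIII replicate 1 and stood 8.68 times above the mean of its 2 companions. The log2 difference of -2.14 ± 0.89 (SE) was not called (limma adjusted p = 0.288, unadjusted p = 0.0456). Without PDGF-B replicate 3 the difference was -3.17 and was called, with a limma adjusted p of 0.0192. The astrocyte markers, whose cells can make C3 and C4, had a mean log2 level of 2.47, 3.74 and 5.87 in PDGF-B-labelled gliomas, 3.28, 4.87 and 4.43 in EGFRvIII-labelled ones and 5.27 in the culture. By this mean PDGF-B replicate 3 was the highest of its group, as for C3, but by summed CPM it was the lowest, at 1085 against 1676 and 2091 CPM in replicates 1 and 2, with 892 to 1036 CPM in EGFRvIII-labelled gliomas and 767 CPM in the culture. Slc1a2 and Aldoc were lowest in replicate 3 of that group, and 0 of the 7 had non-overlapping groups. Oligodendrocyte precursor markers summed to 8009, 10159 and 5179 CPM in PDGF-B-labelled gliomas and to 4392, 4769 and 4783 CPM in EGFRvIII-labelled ones. The culture held 1835 CPM of them. Within the PDGF-B label their order was that of C4b, which the summed astrocyte markers also had. Within the EGFRvIII label their order was the reverse of that of C4b. The part of either marker list in the C3 and C4b levels was not tested.

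The anaphylatoxin receptors were low in PDGF-B-labelled gliomas. C3ar1 (ENSMUSG00000040552, chromosome 6, 122847138 to 122856161, minus strand), the receptor for the C3a fragment, was at 5.62, 8.79 and 30.2 CPM in PDGF-B replicates 1 to 3, at 98.0, 194 and 109 CPM in EGFRvIII replicates 1 to 3 and at 1 read in the culture. The groups did not overlap, with means of 14.9 ± 13.4 and 134 ± 52.7 CPM (SD, n = 3 each), and the log2 difference was -3.47 ± 0.60 (SE; limma adjusted p = 0.0323). C5ar1 (ENSMUSG00000049130, chromosome 7, 16246743 to 16259540, minus strand), the receptor for C5a, was at 0.350, 2.18 and 3.83 CPM, at 14.1, 56.8 and 9.10 CPM and at 0 reads in the same order. It had the lowest mean level per kb of the 9 genes in PDGF-B-labelled gliomas, and its highest glioma was 163 times its lowest. The groups did not overlap, yet the log2 difference of -3.67 ± 0.97 (SE) was not called (limma adjusted p = 0.1002, unadjusted p = 0.00626). Of the genes for C5 receptors, C5ar2 reached at most 1.08 CPM in any library.

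Complement receptor 3 is an integrin of the alpha chain Itgam, also known as CD11b, and the beta chain Itgb2, also known as CD18, and lets phagocytes bind fixed C3 fragments. Itgam (ENSMUSG00000030786, chromosome 7, 128062640 to 128118491, plus strand) was at 29.8, 49.2 and 74.4 CPM in PDGF-B replicates 1 to 3, at 268, 649 and 390 CPM in EGFRvIII replicates 1 to 3 and at 0.0437 CPM, or 1.51 estimated reads, in the culture. Itgb2 (ENSMUSG00000000290, chromosome 10, 77530252 to 77565708, plus strand) was at 9.61, 11.8 and 41.6 CPM, at 105, 306 and 146 CPM and at 0.116 CPM, or 4 reads, in the same order. Neither gene overlapped between the glioma groups, and both ranked the 6 gliomas in the same order as C1qa, C1qc and C3ar1, with PDGF-B replicate 1 lowest and EGFRvIII replicate 2 highest. Itgam was at 51.1 ± 22.4 and 436 ± 195 CPM (SD, n = 3 each), with a log2 difference of -3.09 ± 0.42 (SE; limma adjusted p = 0.0245), the smallest p of the 9 genes. Itgb2 was at 20.98 ± 17.9 and 185 ± 106 CPM, with a log2 difference of -3.31 ± 0.61 (limma adjusted p = 0.0367). Per kb, Itgam stood at 1.09 to 2.53 times Itgb2 over the 6 gliomas. Itgam overlaps Gm49368 on the same strand, at 0.107 to 8.98 CPM in the gliomas, so some of its reads could have been assigned there. The alpha chain Itgax, which pairs with the same beta chain to form complement receptor 4, was at 17.04, 15.6 and 20.4 CPM, at 99.1, 162 and 135 CPM and at 0 reads, a log2 difference of -2.87 ± 0.23 (limma adjusted p = 0.00769). The Itgam promoter window (RefSeq, GRCm38.p6, chr7:128062390-128062689, plus strand, 250 bases before and 50 after the start) is shown because it holds 3 GAGGAA matches, in capitals on either strand.
Itgam: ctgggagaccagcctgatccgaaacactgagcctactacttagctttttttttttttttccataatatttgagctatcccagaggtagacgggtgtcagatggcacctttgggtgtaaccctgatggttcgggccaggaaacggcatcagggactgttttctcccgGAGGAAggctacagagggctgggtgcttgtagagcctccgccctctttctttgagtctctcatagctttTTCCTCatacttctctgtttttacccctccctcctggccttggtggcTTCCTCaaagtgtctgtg

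The culture separates a gene that the progenitors make from genes found only at trace levels in them. At a minimum of 1 CPM, 1 of the 9 genes was made by the culture, C4b at 2.42 CPM, while 14094 of the 17422 genes reached that level. The other 8 were under 1 CPM, and C1qb and C5ar1 had 0 reads, as had 417 of all genes. C3, at 17 reads, was between C4b and the rest, none of which exceeded 4 reads. The culture is 1 library, so its levels have no replicate check, and the intervals given next cover only the counting error of its reads, at 95%. C4b was 288 times (232 to 361) higher in PDGF-B-labelled gliomas than in the culture and 92.0 times (74.3 to 115) higher in EGFRvIII-labelled ones. C3 was 12.9 times (8.05 to 22.1) and 38.0 times (23.8 to 65.3) higher, the smallest ratios of the genes with culture reads. Itgb2 was 181 times (70.8 to 665) and 1602 times (626 to 5879) higher. Against a floor of 3 reads, C1qb was at least 1103-fold higher in PDGF-B-labelled gliomas and at least 15130-fold higher in EGFRvIII-labelled ones, and C5ar1 at least 24.4-fold and at least 307-fold.

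In the fit of all 7 libraries, in which the lone culture library is assumed to vary like the gliomas, 7 of the 9 genes were called higher in PDGF-B-labelled gliomas than in the culture, against 7.73% of all genes. C3 and C5ar1 were not called. In the EGFRvIII-labelled gliomas 8 of 9 were called higher, all but C3, against 8.20% of all genes. Both comparisons use the same culture library. The C4b difference was 8.10 ± 0.43 (SE; limma adjusted p = 0.000389) in the first and 6.43 ± 0.43 (limma adjusted p = 0.000431) in the second. For Itgam the differences were 8.88 ± 0.59 (limma adjusted p = 0.000962) and 11.97 ± 0.59 (limma adjusted p = 0.000245), so C4b and Itgam have their larger value in opposite glioma groups. C3 differed by 2.77 ± 1.26 (limma adjusted p = 0.207) and 4.91 ± 1.26 (limma adjusted p = 0.0546). C5ar1 differed by 4.72 ± 1.38 (limma adjusted p = 0.0775) and 8.397 ± 1.38 (limma adjusted p = 0.0101). The median difference of the 9 genes was 8.10 and 10.52, beside 0.037 and 0.013 for all genes, and was the same with C1qb and C5ar1 at their bounds. With voom weights in place of the deposited log2 values, the counts of called genes were 1 (C4b) and 2 (C4b and Itgam).

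Each gene was then set against the microglial markers within a library, as its log2 level minus the mean of the 20 markers, to see whether it differed between glioma groups by more than those markers did. The exact 2-sided permutation test over 3 against 3 gliomas cannot give a p below 0.1. C4b was 5.37, 5.37 and 3.63 above the markers in PDGF-B replicates 1 to 3, and at 1.14, -0.73 and -0.12 in EGFRvIII replicates 1 to 3. The groups were separate, with a difference of 4.69 (exact permutation p = 0.1, adjusted over the 9 genes 0.225). The marker mean was itself lower in PDGF-B-labelled gliomas, at 4.04, 4.402 and 5.42 against 7.17, 8.29 and 7.44. A gene with equal levels in both groups would therefore have a positive difference on this scale. The 4.69 holds both that marker difference and the C4b log2 difference of 1.68. For C1qa, C1qb and C1qc the differences were -0.72, -0.72 and -0.53, lower in PDGF-B-labelled gliomas, each with separate groups and the same p of 0.1 by the exact test. That separation depended on the marker set. With the 10 homeostatic markers alone the groups of all 3 chains overlapped (exact permutation p = 0.2 each). C1qc also overlapped without Sall1 (difference -0.36, exact permutation p = 0.2) and with the general myeloid markers (difference -0.22, exact permutation p = 0.5). The remaining 5 genes overlapped. Itgam, at 0.96 and 1.04 above the markers in the group means, differed by -0.081 (exact permutation p = 0.7) and Itgb2 by -0.30 (p = 0.3). C3ar1 differed by -0.46 (exact permutation p = 0.4), C5ar1 by -0.66 (p = 0.5) and C3 by 0.87 (p = 0.4). The sign for Itgam turned to 0.23 with the 10 general myeloid markers alone and to 0.087 without Sall1, and that for Itgb2 turned to 0.00624 with the general myeloid markers.

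**Figure D2:**
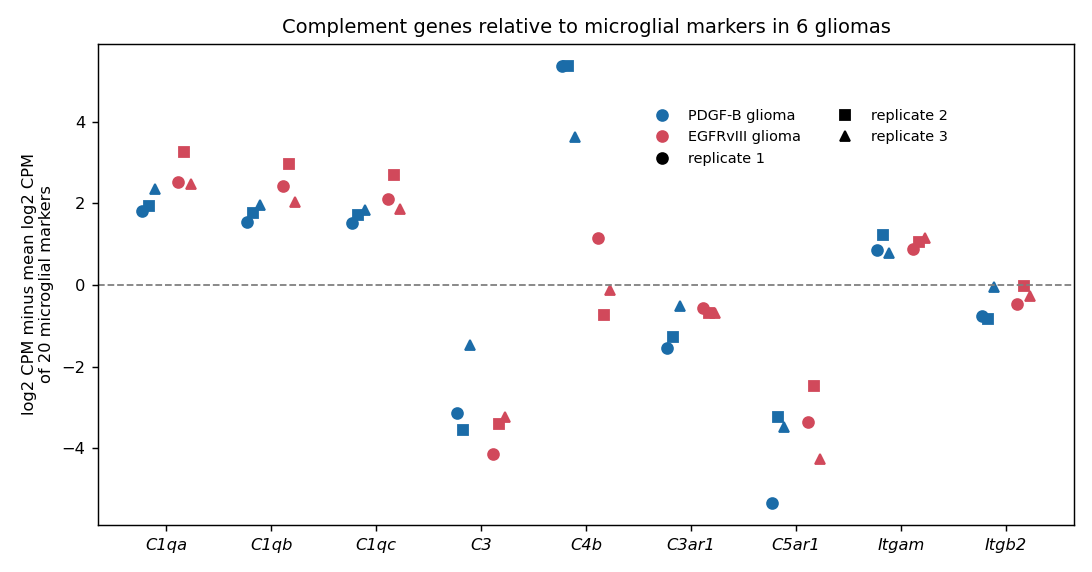
Log2 CPM of each complement gene minus the mean log2 CPM of 20 microglial markers in the same glioma, with 1 point per glioma coloured by label and shaped by replicate. C4b is separated by 4.69 between the group means, which holds its own difference of 1.68 and the lower marker mean of the PDGF-B-labelled gliomas. For the other genes the group means differ by less than 1 log2 unit.

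**Figure D3:**
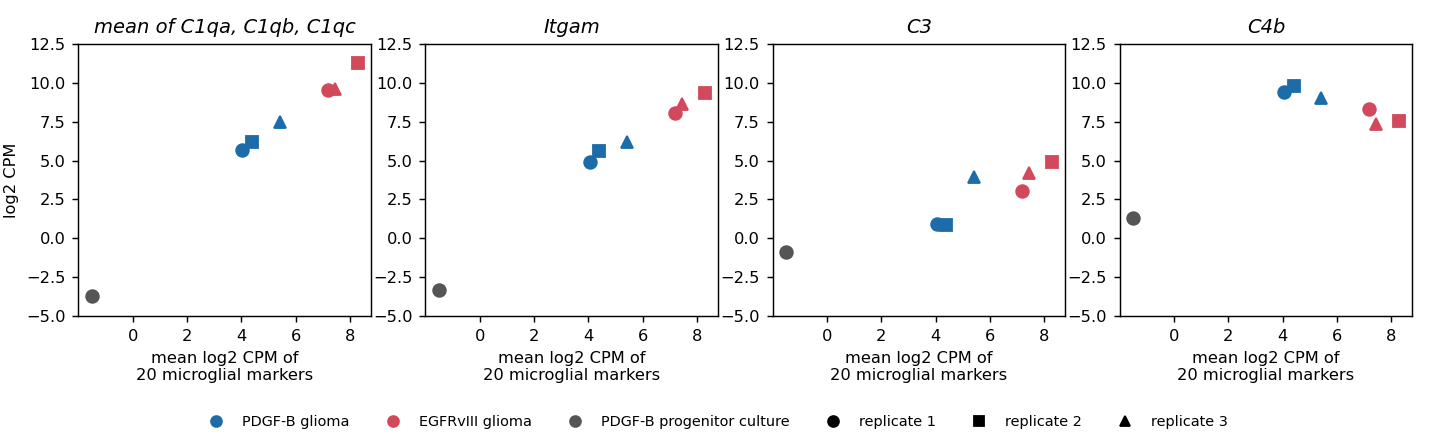
Log2 CPM of the C1q chains (as their mean), Itgam, C3 and C4b against the mean log2 CPM of 20 microglial markers, with 1 point per library. C1q and Itgam lie higher in the gliomas with higher marker means, C4b is lower in the EGFRvIII-labelled gliomas, and the culture has the lowest marker mean.

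Per kb of exon, which allows comparison between genes, C4b was at 122 ± 30.3 CPM per kb in PDGF-B-labelled gliomas (SD, n = 3) and C1qa at 115 ± 83.9. C4b was above C1qa in replicates 1 (119 against 55.4) and 2 (154 against 78.5) and below it in replicate 3 (93.4 against 211), so their order does not hold within the group. In the EGFRvIII-labelled gliomas, C1qa was at 1531 ± 1154 CPM per kb, C1qb at 1208 ± 908, C1qc at 566 ± 414, Itgam at 86.7 ± 38.7 and C4b at 39.1 ± 14.8. The means of C1qa and C1qb differed by less than their spread there. Within each library C1qa was the higher, at 1.12, 1.27 and 1.42 times C1qb in replicates 1 to 3. Itgb2 lay between Itgam and C4b at 60.8 ± 34.8, and its mean differed from each of these neighbours by less than its spread. Itgam stood at 1.55, 1.29 and 1.62 times Itgb2 in replicates 1 to 3. Itgb2 was below C4b in replicate 1 (34.4 against 55.9) and above it in replicates 2 (100.2 against 33.1) and 3 (47.8 against 28.2). Lower levels were 31.1 ± 12.2 for C3ar1, 10.4 ± 10.2 for C5ar1 and 3.64 ± 2.08 for C3.

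Calls among other complement genes were also counted. Of 51 listed, 30 were measured and the other 21 were not analysed here, among them Hc, C6, C7 and C9. In the comparison of glioma groups 4 of 30 were called, against 3.35% of all genes, 1 higher and 3 lower in PDGF-B-labelled gliomas. C4a was the higher one, and Colec12 and Itgax were among those lower. An unadjusted p under 0.05 was found for 12 of the 30, and their median log2 difference was -0.24. Without PDGF-B replicate 3, 7 were called, and without any 1 of the other gliomas 0 to 1. Colec12, a membrane collectin that recognises sugars, was at 12.002 ± 8.64 and 128 ± 22.7 CPM (SD, n = 3 each), with 0.318 CPM in the culture and a difference of -3.65 ± 0.48 (limma adjusted p = 0.0245). Clu, the soluble inhibitor clusterin, was not called, at 252 ± 108 and 116 ± 36.8 CPM.

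**Figure D4:**
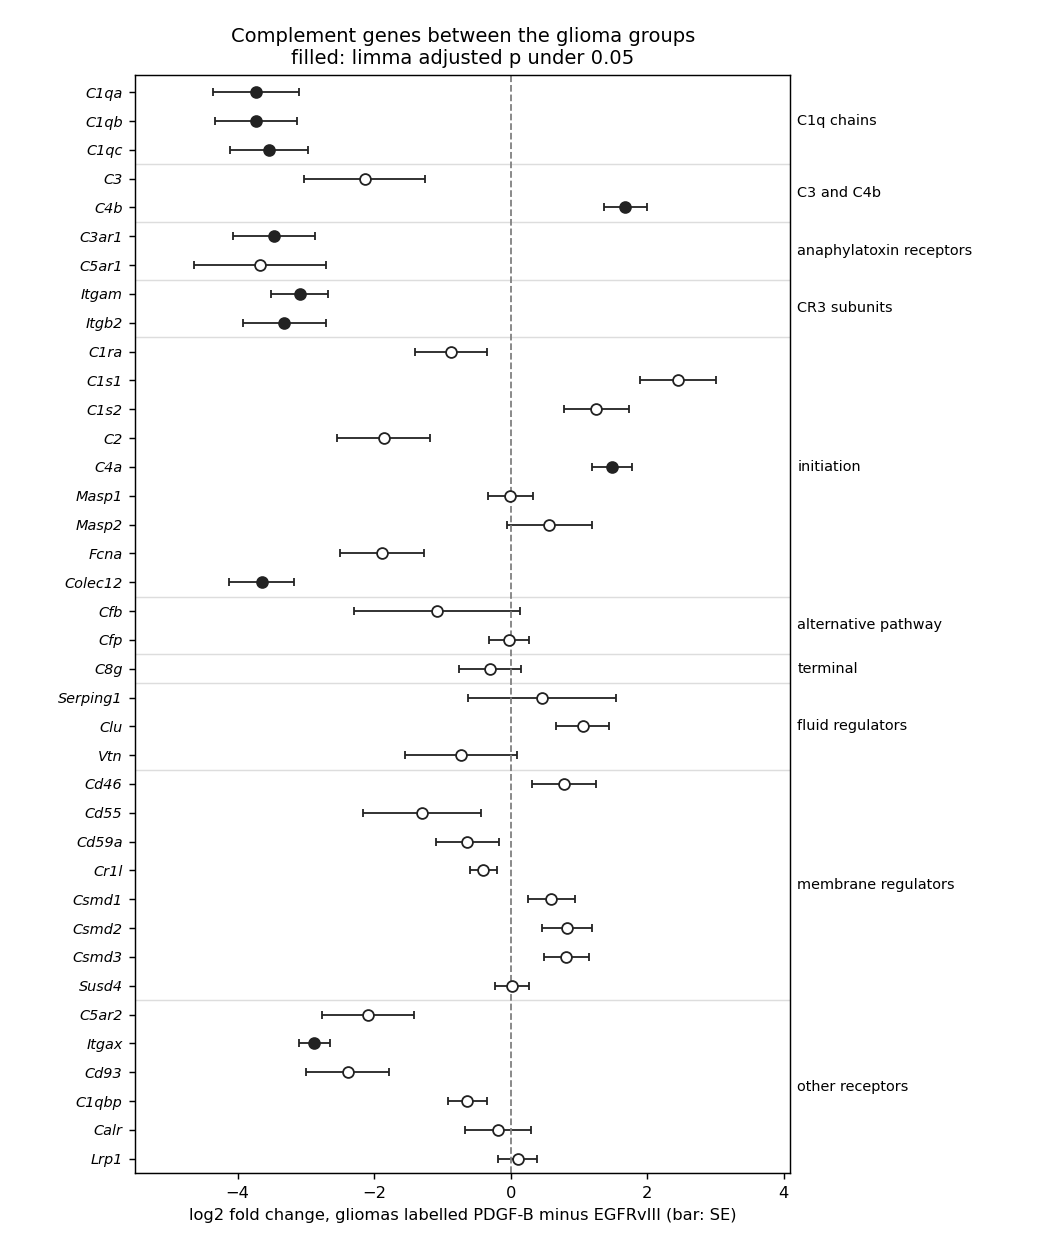
Log2 difference between the glioma groups (PDGF-B-labelled minus EGFRvIII-labelled, from deposited log2 CPM) of the 9 complement genes and of other complement genes, ordered by role, with bars of 1 SE and filled points where the limma adjusted p was under 0.05. C4b lies at 1.68 and the other 8 of the 9 genes lie between -3.73 and -2.14, while the 8 membrane regulators lie between -1.29 and 0.83.

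In the culture, 17 of these 30 were at 1 CPM or more and 13 were under it. The highest per kb there were Calr, a chaperone that can bind C1q, at 866 CPM, and C1qbp, a mitochondrial protein that can bind the globular heads of C1q, at 115 CPM. Against the culture, 9 of the 30 were called higher in PDGF-B-labelled gliomas and 10 in EGFRvIII-labelled ones. Of all genes, 7.73% and 8.20% were called higher. The median differences of the 30 were 1.48 and 1.32, beside 0.037 and 0.013 for all genes. Lrp1, an endocytic receptor, was at 2076 ± 225 and 1984 ± 567 CPM (SD, n = 3 each) and at 349 CPM in the culture, with differences of 2.57 (limma adjusted p = 0.00893) and 2.47 (limma adjusted p = 0.00825). The membrane regulators Csmd3, at 153 ± 57.3, 83.0 ± 16.4 and 9.93 CPM, and Susd4, at 185 ± 45.45, 180 ± 33.6 and 62.3 CPM, were also called in both. Csmd1 was called only in the first (difference 1.96, limma adjusted p = 0.0494). Cd93, at 83.5 ± 75.6, 350 ± 121 and 15.2 CPM, and Cd59a, at 1.43 ± 0.615, 2.26 ± 0.952 and 0.261 CPM, were called only in the second, with limma adjusted p of 0.0192 and 0.0437. C1ra, a protease of the C1 complex, was at 3.27 ± 1.70, 5.75 ± 2.35 and 0.174 CPM and was called in both. Whether the differences of Csmd1, Cd93 and Cd59a from the culture differ between glioma groups was tested only in the glioma comparison, where none was called.

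Over the 6 gliomas, genes most like a complement gene were ranked by Pearson's r of log2 CPM among about 10986 genes that reached 10 CPM in a glioma. Pooled groups make r high for any gene with the same group difference, so these are descriptions. For the mean of the C1q chains, they were Tyrobp, the DAP12 adaptor of myeloid receptors, Glipr1 and Plekhf2, at 1.00, 0.999 and 0.999. C4b was nearest to C4a (0.998), followed by Adamts5 (0.993), and C3 to Narf (0.997), Cited2 (0.993) and Aspscr1 (0.992). C3ar1 was nearest to Tmem119, Fermt3 and Ppfia4, all 0.999, and C5ar1 to Tuba4a, Ms4a6d and Fcgr4 (0.999, 0.998 and 0.995). Itgam was nearest to Tlr7 (0.998), Isyna1 and Nagpa (both 0.997), and Itgb2 to Cyba (0.999), Pon3 and Grn (both 0.997). The culture was left out of these correlations.

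Between the glioma groups, 1 of 6 border macrophage markers, Mrc1, was called lower in PDGF-B-labelled gliomas, against 2.63% of all genes. Of the measured monocyte (2), neutrophil (1), astrocyte (7), endothelial (5) and oligodendrocyte precursor (5) markers, 0 were called. All 6 border macrophage and all 5 endothelial markers were lower in PDGF-B-labelled gliomas, and all 5 oligodendrocyte precursor markers were higher. Of the astrocyte markers 3 were higher and 4 lower, of the monocyte markers 1 each, and the neutrophil marker was lower. Of the lymphocyte markers 0 of 7 were measured, of neutrophil markers 1 of 6, and of monocyte markers 2 of 6. Border macrophage markers summed to 25.7 to 39.8 CPM in PDGF-B-labelled gliomas and to 85.7 to 278 CPM in EGFRvIII-labelled ones. The culture held 2.14 CPM of them, and 3 of 6 did not overlap, against 22.9% of all genes. Endothelial markers summed to 4.16 to 18.4 and 15.2 to 28.5 CPM, and 4 of 5 measured did not overlap. Their sum in the culture was 28.4 CPM, most of it Flt1 at 26.6 CPM. The part of these markers in the complement levels was not tested.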

How the data were processed

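Libraries were prepared and sequenced on a BGISEQ-500 instrument, per the labels' protocols, which do not say whether poly(A) RNA was selected or ribosomal RNA removed. The deposited values are log2 CPM, per the file headers of 6 of the 7 files; the file of EGFRvIII replicate 3 has no unit in its header but the same floor of -4.12 log2 CPM. STAR, edgeR and mm10 are named, without versions, in the submitters' processing notes. For the quantifier, strand setting and gene filter, nothing is stated in those sources.

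The floor marks 0 reads plus a prior of 2 reads, which was removed to give CPM. Estimated reads were multiples of 0.01 read and mostly not whole, so no count test was used for the main calls. They entered only the voom alternative and the ratios to the culture with their counting intervals. GENCODE M21 (GRCm38) supplied symbols for 17247 of 17422 identifiers, and 175 had none. Deposited log2 values of all genes were fitted with limma 3.58.1 in R 4.3.3 (intensity trend, robust moderation), with Benjamini-Hochberg adjustment over 17422 genes. The glioma comparison used 6 libraries, and both culture comparisons used all 7. Since no source ties replicates to separate litters or cultures, p-values measure the spread between these tumours. The fit was also run on simulated data, where the only condition set was mostly the right sign for large changes. The simulated spread between libraries was set below that of the gliomas and was the same for the culture. It therefore cannot check the spread assumed for the culture. Promoter windows came from RefSeq for GRCm38.p6.

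The 9 genes, the other complement genes and the marker lists were chosen with earlier results of these data known. Named are all 9 genes, other complement genes called in any comparison with at least 1 CPM in a library, the 2 highest per kb in the culture, C4a, driver genes, 5 defining microglial markers and, for each pattern, the 3 genes most like it. Some genes that this rule takes are not reported here. Hc, C6, C7, C9, C5ar2, Clu, Mrc1, Spi1, Sall1 and Gm49368 fall outside that rule and were named after their values were seen. Alternatives covered scaling, prior, a CPM minimum, voom weights, moderation, threshold, a replicate block and leaving out each glioma.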

Additional observations from a re-analysis of the deposited data

How the results depend on the processing

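Between the glioma groups, the count of 7 called genes of 9 was the same under median centring, quantile normalization, priors of 0.5 and 5 reads, a CPM minimum, voom weights and unrobust moderation, and with library totals without scaling factors, an alternative chosen after seeing the data. At an adjusted p of 0.01, limma called 7 of all 17422 genes, among them 0 of the 9 and 1 of the 30 other complement genes. All 9 had an unadjusted p under 0.05, and the share of all genes with such a p is not given here. Leaving out each glioma in turn gave 0 to 9 of the 9 and 0 to 7 of the 30. The high values, 9 and 7, came without PDGF-B replicate 3, and omitting any other glioma gave 0 of the 9. The cause was not tested. Same-numbered gliomas correlated at 0.175, -0.036 and -0.080 in their deviations from the group means, and differently numbered ones at -0.25 to 0.207. With 3 gliomas per label, these values cannot decide whether the shared replicate numbers pair the samples. A replicate block gave 0 called of the 9 with limma, 9 with an unadjusted p under 0.05, and 1 of the 30, when 18 of all genes were called.

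Against the culture, voom weights called 1 of the 9 and 4 of the 30 in the gliomas labelled PDGF-B, and 2 of the 9 and 5 of the 30 in those labelled EGFRvIII; an adjusted p of 0.01 left 6 of the 30 in the latter. The count made by the culture was 3 at 0.1 CPM (C3, C4b and Itgb2) and 0 at 5 CPM. Relative to microglial markers, Itgam changed sign to 0.23 with general myeloid markers, to 0.087 without Sall1 (chosen after seeing the data) and to 0.000636 without PDGF-B replicate 3 (leaving out each glioma gave -0.21 to 0.000636), and Itgb2 to 0.00624 with general myeloid markers. Median centring moved library medians by -0.14 to 0.13 on the log2 scale. With 3 gliomas per label and 1 culture, the number of libraries limits the glioma tests, and the trace levels in the culture of the 8 genes other than C4b rest on 0 to 17 reads.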

Other observations

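The balance between the B chain of C1q and C4b differed widely between libraries. Per kb of exon, C1qb stood at 0.372, 0.429 and 1.65 times C4b in PDGF-B replicates 1 to 3 and at 12.7, 68.2 and 23.4 times in EGFRvIII replicates 1 to 3. C3 relative to C4b, on the same scale, was 0.00295, 0.00222 and 0.0322 in the former and 0.0283, 0.174 and 0.127 in the latter. PDGF-B replicate 3 was above EGFRvIII replicate 1 for the second ratio and below every glioma labelled EGFRvIII for the first. These ratios were computed after the levels were seen and were not tested.

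Factor B, encoded by Cfb, the protease of the alternative pathway, was uneven within both labels. It was at 1.28, 1.29 and 13.1 CPM in the gliomas labelled PDGF-B, at 4.43, 27.9 and 1.74 CPM in those labelled EGFRvIII and at 1.24 CPM in the culture. The libraries highest for Cfb, PDGF-B replicate 3 and EGFRvIII replicate 2, were also the highest of their groups for C3. Properdin, encoded by Cfp, a stabiliser of the same pathway's convertase, was at 8.73 to 15.1 CPM in the 6 gliomas and at 5.85 CPM in the culture. Cfb and Cfp lie outside the rule for named genes and were chosen after their values were seen.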
